A study of Sus scrofa with 9 samples.

Results

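AREG, HBEGF, ADAM17 and ADAM10 encode 2 ligands of the epidermal growth factor (EGF) receptor and 2 proteases that release such ligands from the cell surface. They are 4 of the 3890 genes that could be matched by RefSeq accession to a pig gene symbol in a table of nascent transcription, and they occupy 7 of its 4882 annotated positions. The genes were picked by symbol with their levels in these same libraries already known, so their levels in healthy, border zone and ischemic myocardium are a description and carry no test. Where a gene had several positions the one with the longest span stood for it, and the other positions of ADAM17 and ADAM10 are given beside it.

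The measurements come from 3 female farm pigs in which an embolization coil was placed in the distal left anterior descending coronary artery through a catheter. Tissue was taken 24 hours later, and each animal was sampled in all 3 zones, so that the 3 groups of 3 libraries come from the same pigs. The healthy samples therefore come from animals that also carried an infarct, and the labels name no untreated pig. Tissue was digested with collagenase and filtered, nuclei were isolated, and RNA polymerases already on the DNA were allowed to run on with a bromine-labelled nucleotide, an assay called GRO-seq that reads ongoing transcription and not the store of finished mRNA. Values are RPKM, reads per kilobase of annotated span (introns included) scaled to the total of the library.

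EGF receptor ligands are made as precursors anchored in the cell membrane. A metalloprotease cuts off the outer part, a step called shedding, and the freed ligand binds receptors of the EGFR and ERBB family, which signal through RAS, the MAP kinases and PI3 kinase. Amphiregulin, the product of AREG, binds the EGF receptor, and heparin-binding EGF-like growth factor, the product of HBEGF, binds the EGF receptor and ERBB4. ADAM17, first described as the enzyme that releases tumour necrosis factor, sheds both of these ligands, while ADAM10 is the main sheddase of EGF and betacellulin and also cuts Notch receptors and cadherins.

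Depth differed between groups. Totals ran from 2730083 to 6531658 reads among the healthy libraries, from 2187977 to 7005976 among those of the border zone and from 883656 to 2134087 among the ischemic ones. Read counts of 1 to 30 were multiples of 3 in 32.8% to 53.2% of cases per library, against 33.3% in an even spread, so reads are not known to be independent molecules and all intervals below cover counting error only. Summed markers of heart muscle cells were lower, and summed markers of leukocytes higher, in ischemic than in healthy libraries. The 10 cardiomyocyte markers in the table summed to 347 to 618 RPKM among healthy, 166 to 283 among border zone and 77.3 to 229 among ischemic libraries. The 10 macrophage and monocyte markers summed to 2.27 to 3.68, 8.29 to 18.2 and 20.6 to 23.5 RPKM, and the 6 neutrophil markers to 0.0995 to 0.323, 5.28 to 10.9 and 14.1 to 30.5 RPKM. CD163 and FCGR3A, among the macrophage and monocyte markers, were listed at 0 in every library. All positions of CD163 lie on unplaced scaffolds, where every position is listed at 0, so its 0 says nothing of its transcription. The 5 fibroblast markers summed to 8.46 to 11.6, 10.4 to 12.7 and 12.2 to 16.7 RPKM. In bulk tissue, more cells of a type and more transcription per cell cannot be told apart, and the part of these markers in the levels below was not tested.

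**Figure D1:**
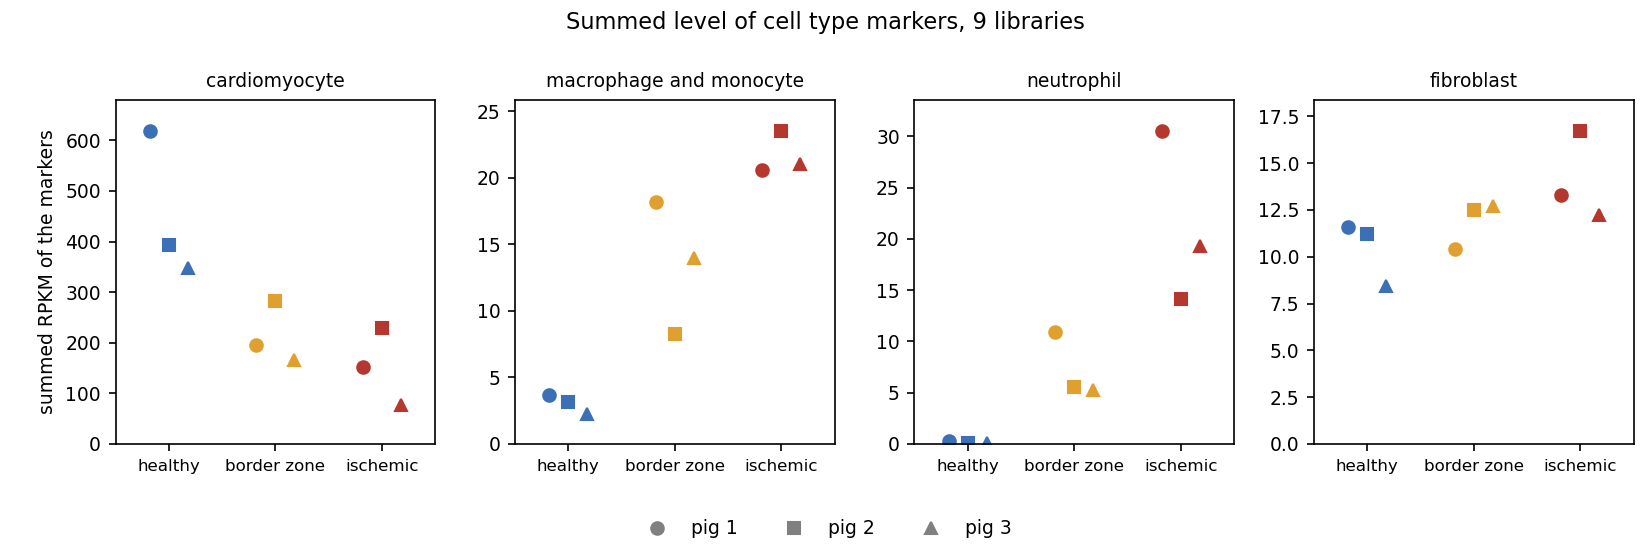
Summed RPKM of cell type markers (linear axis from 0) in each of the 9 libraries, grouped by zone on the horizontal axis, with circles, squares and triangles for pigs 1, 2 and 3. The healthy libraries hold at most 3.68 RPKM of macrophage and monocyte markers and 0.323 RPKM of neutrophil markers, and the ischemic libraries at least 20.6 and 14.1 RPKM.

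AREG (NM_214376, susScr3 chromosome 8 from 74568826 to 74579002, plus strand) was close to silent in healthy myocardium and well transcribed in the border zone and the infarct. It stood at 0.036, 0.086 and 0.0451 RPKM in the healthy libraries of pigs 1 to 3, which rests on 1, 3 and 3 reads. The border zone libraries held 3.79, 2.89 and 3.32 RPKM (137, 206 and 74 reads), and the ischemic libraries 4.97, 2.93 and 2.11 RPKM (108, 34 and 19 reads). Every border zone and every ischemic library lay far above every healthy library, and the border zone and ischemic libraries overlapped.

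Group means of AREG were 0.0557 ± 0.0267 RPKM for healthy, 3.33 ± 0.451 for border zone and 3.34 ± 1.47 for ischemic libraries (mean ± SD, n = 3 each). Positions averaging 0.5 RPKM or more across all libraries were kept for testing, 2384 in number and all 7 of the member positions among them. Against these, the healthy mean stood at percentile 2.1, the border zone mean at percentile 79.6 and the ischemic mean at percentile 77.2. AREG passed that filter only through the border zone and ischemic libraries. Pooled over libraries, the read density of AREG was 59.3 times the healthy one in border zone (exact 95% counting interval 28.5 to 148) and 70.2 times in ischemic myocardium (33.3 to 177). On the scale of log2(RPKM + 0.1), where the added 0.1 pulls in values this low, the difference from healthy was 4.47 ± 0.32 in border zone and 4.39 ± 0.32 in ischemic myocardium (± SE). Ischemic minus border zone was -0.08 ± 0.32, with 0.38, 0.02 and -0.63 in pigs 1 to 3, so these zones did not differ beyond the spread between pigs. AREG ran from 2.11 to 4.97 RPKM in the ischemic group, and the interval of pig 3 (1.27 to 3.3) lay below that of pig 1 (4.08 to 6). These intervals take each read as an independent molecule, which is not known, so a spread beyond counting error is not shown.

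HBEGF (NM_214299, chromosome 2 from 148047629 to 148058091, minus strand) was low in healthy myocardium and the most strongly transcribed of the 4 genes in the border zone and ischemic group means. The healthy libraries held 0.245, 0.251 and 0.395 RPKM (7, 9 and 27 reads), the border zone libraries 4.68, 3.77 and 4.85 RPKM (174, 276 and 111 reads), and the ischemic libraries 7.57, 4.61 and 12 RPKM (169, 55 and 111 reads). No border zone or ischemic library overlapped the healthy ones. Ischemic pig 2 lay inside the range of the border zone, whereas ischemic pigs 1 and 3 lay above it.

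Means of HBEGF were 0.297 ± 0.0849 RPKM for healthy, 4.43 ± 0.584 for border zone and 8.06 ± 3.72 for ischemic libraries (mean ± SD, n = 3 each), at percentiles 6.25, 84.7 and 90.5 of the tested positions. Like AREG, it passed the filter only through the border zone and ischemic libraries. The difference from healthy was 3.53 ± 0.34 in border zone and 4.28 ± 0.34 in ischemic myocardium on the log2 scale, and the pooled read density was 13 times (exact 95% counting interval 9.52 to 18.1) and 23.8 times (17.3 to 33.5) the healthy one. HBEGF was higher in ischemic than in border zone tissue in 3 of 3 pigs, by 0.68, 0.28 and 1.29 on the log2 scale (0.75 ± 0.34 in the fit), although the groups overlapped.

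ADAM17 (NM_001099926, longest position on chromosome 3 from 135176533 to 135222632, minus strand) was transcribed in every zone and was higher in the border zone and the infarct. The healthy libraries held 0.612, 0.741 and 0.661 RPKM, the border zone libraries 2.02, 1 and 1.58 RPKM, and the ischemic libraries 2.1, 2.28 and 1.89 RPKM. Both injured zones lay above all healthy libraries, and the border zone was the more scattered group. Its lowest library, pig 2, was also the border zone library with the lowest macrophage and monocyte marker sum (8.29 RPKM) and the highest cardiomyocyte marker sum (283 RPKM). In the ischemic group pig 2 had the highest ADAM17 and the highest sums of both marker sets (23.5 and 229 RPKM). A link between ADAM17 and these markers was not tested.

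Means of ADAM17 were 0.671 ± 0.0651, 1.53 ± 0.511 and 2.09 ± 0.196 RPKM (mean ± SD, n = 3 each), which is a difference from healthy of 1.04 ± 0.26 in border zone and 1.51 ± 0.26 in ischemic myocardium on the log2 scale. Within pigs 1 to 3 the border zone difference was 1.58, 0.39 and 1.14, and the ischemic difference 1.63, 1.5 and 1.39. Ischemic minus border zone was 0.47 ± 0.26, with 0.05, 1.11 and 0.25 in the 3 pigs, and the groups overlapped. ADAM17 rested on 77 to 331 reads per library. In the border zone the exact 95% intervals of pig 1 (1.81 to 2.25) and pig 2 (0.897 to 1.12) were apart. These too take each read as an independent molecule.

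ADAM10 (NM_001130531, longest position on chromosome 1 from 125476146 to 125527319, minus strand) was at a similar level in the 3 zones. The healthy libraries held 1.34, 0.673 and 0.613 RPKM, the border zone libraries 1.1, 0.948 and 0.893 RPKM, and the ischemic libraries 0.833, 0.771 and 0.752 RPKM. The healthy group spanned both other groups, because pig 1 was above and pigs 2 and 3 were below every other library. Healthy pig 1 was also the library with the highest cardiomyocyte marker sum, 618 RPKM. Healthy pigs 2 and 3, the lowest for ADAM10, had sums of 394 and 347 RPKM, above every border zone and ischemic library (at most 283 RPKM). A link between ADAM10 and these markers was not tested.

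Means of ADAM10 were 0.875 ± 0.403, 0.979 ± 0.104 and 0.785 ± 0.0426 RPKM (mean ± SD, n = 3 each). The difference from healthy was 0.22 ± 0.29 in border zone and -0.07 ± 0.29 in ischemic myocardium on the log2 scale, and without healthy replicate 1 these values were 0.53 and 0.25. The ischemic libraries lay just below the border zone libraries without overlap, by 0.36, 0.27 and 0.22 on the log2 scale in pigs 1 to 3 (fitted difference -0.28 ± 0.29). Summing all positions of the gene moved that difference to 0.04.

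**Figure D2:**
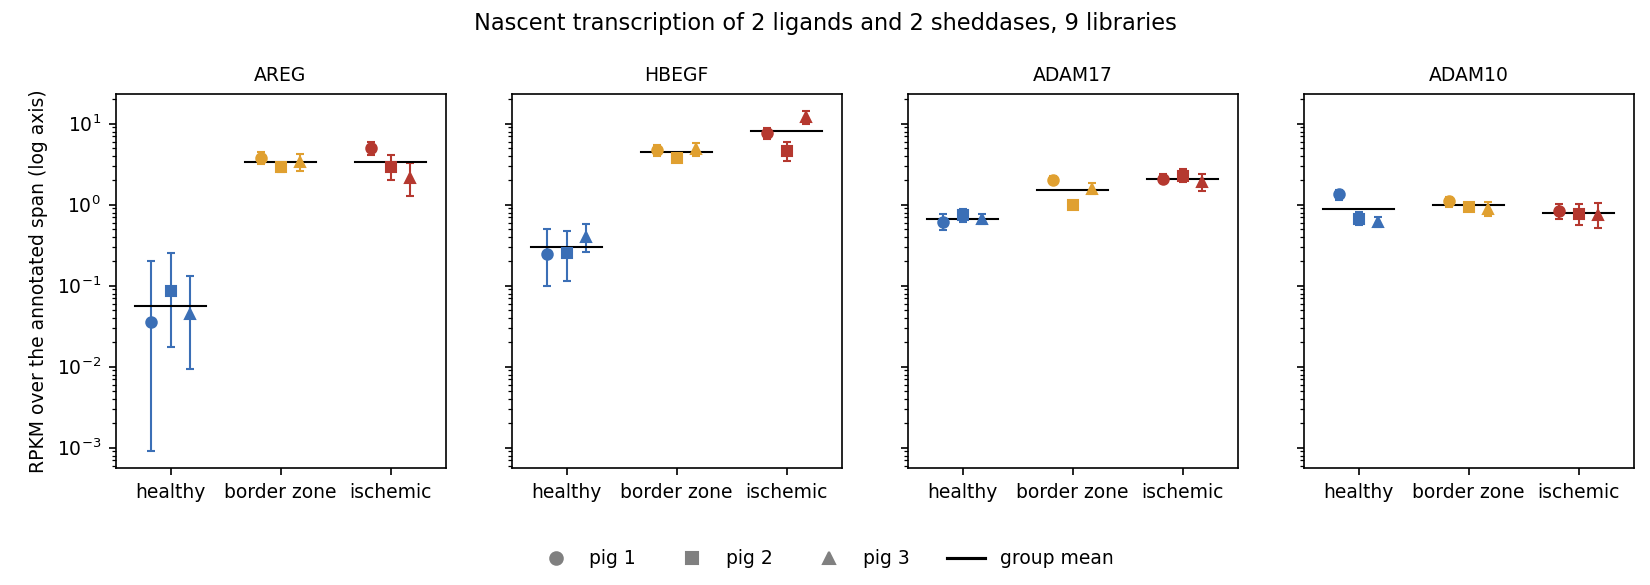
RPKM of AREG, HBEGF, ADAM17 and ADAM10 (log axis) by zone, with 1 symbol per library, exact 95% counting intervals as bars and the group mean as a line. AREG and HBEGF stand below 0.4 RPKM in all healthy libraries and above 2 RPKM in all others, ADAM17 is separated from healthy by less, and ADAM10 overlaps between healthy and both other zones.

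Set side by side, the ligands differed between healthy and injured tissue by more than the sheddases did. In healthy myocardium the group means put ADAM10 first, then ADAM17, HBEGF and AREG, although ADAM10 and ADAM17 overlapped there. In border zone and ischemic myocardium the order was HBEGF, AREG, ADAM17 and ADAM10, with AREG and HBEGF overlapping in both zones. ADAM17 overlapped ADAM10 in the border zone and AREG in the infarct. Of the 4 genes, 3 did not overlap between groups and were higher in ischemic than in healthy libraries, where 28.4% of tested positions did the same and 14.9% were lower without overlap. The same 3 genes did so in border zone against healthy, where these shares were 25.7% and 6.71%. AREG and HBEGF passed the filter only through the border zone and ischemic libraries, and all 4 genes were picked with their levels known. Their count beside these shares is therefore no support for a rise. ADAM10 was lower without overlap in ischemic than in border zone libraries, as were 11.5% of tested positions, while 8.56% were higher without overlap. The median log2 difference of all tested positions was 0.21 in ischemic against healthy, 0.22 in border zone against healthy and -0.04 in ischemic against border zone. With the libraries scaled to a common median, the ischemic and border zone differences from healthy were 4.27 and 4.3 for AREG, 4.09 and 3.29 for HBEGF, 1.3 and 0.79 for ADAM17, and -0.27 and -0.03 for ADAM10, so the sign of the ADAM10 border zone difference depended on the scaling. The ischemic and border zone comparisons share the healthy libraries and are not independent.

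Ratios between genes of 1 library do not depend on its total. HBEGF was 1.24, 1.3 and 1.46 times AREG in the border zone libraries and 1.52, 1.57 and 5.68 times AREG in the ischemic libraries of pigs 1 to 3. Ischemic pig 3, with the highest HBEGF and the lowest AREG of its group, stood apart, and its exact 95% counting interval of 3.47 to 9.79 did not reach the other ischemic values. In healthy libraries the ratio was 6.81, 2.92 and 8.75, but the few AREG reads leave it loosely set, with intervals from 0.875 to 307, 0.728 to 16.8 and 2.69 to 45.1. ADAM17 was 0.457, 1.1 and 1.08 times ADAM10 in healthy, 1.85, 1.06 and 1.77 times in border zone and 2.53, 2.96 and 2.51 times in ischemic libraries. For these longest positions the ischemic ratios all lay above the others, and border zone pig 2 lay inside the healthy range. With the positions of each gene summed, neither held, although every ischemic ratio still lay above every healthy one. Border zone pig 3 then had 1.44 RPKM of ADAM17 and 0.779 RPKM of ADAM10, a higher ratio than ischemic pig 1 (1.83 and 1.16 RPKM). Border zone pig 2 (0.911 and 0.999 RPKM) then had a higher ratio than every healthy library.

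**Figure D3:**
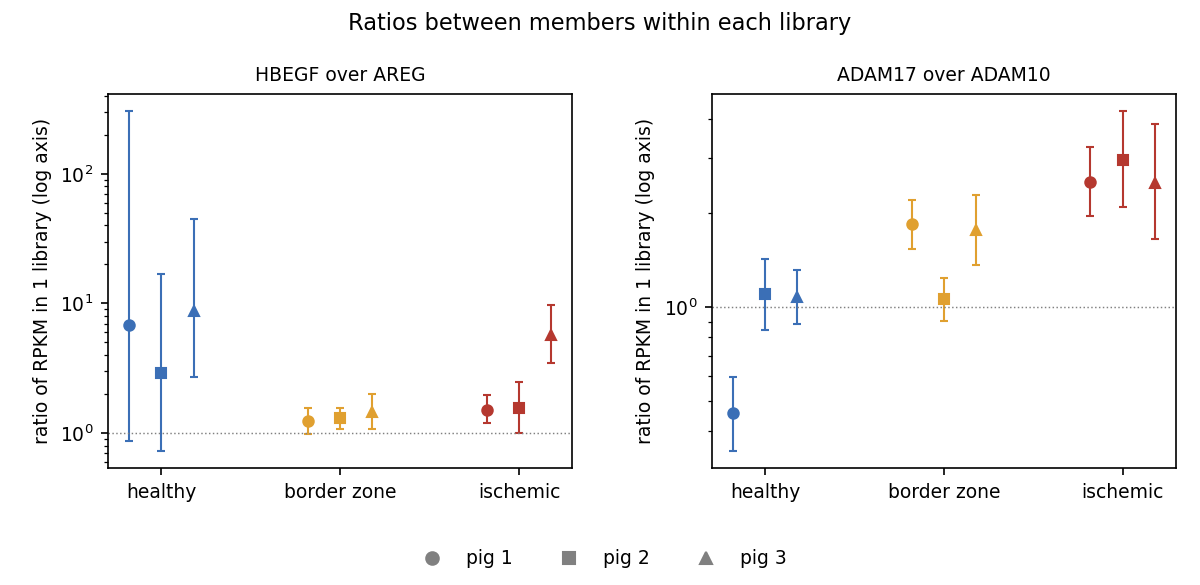
Ratio of HBEGF to AREG and of ADAM17 to ADAM10 in RPKM within each library (log axis), by zone and pig, with exact 95% counting intervals. The longest position stands for each gene. The ADAM17 to ADAM10 ratio is 2.51 or more in the 3 ischemic libraries and 1.1 or less in the 3 healthy ones, and the HBEGF to AREG ratio of ischemic pig 3 is 5.68.

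The transcripts of both proteases are broken up on the susScr3 build. ADAM17 occupies a minus strand piece of 46099 bp and a plus strand piece of 24713 bp (chromosome 3 from 135096588 to 135121301), which hold 3020 bp of exons together. ADAM10 occupies a minus strand piece of 51173 bp, a plus strand piece of 46768 bp (chromosome 1 from 125333225 to 125379993) and a minus strand piece of 2375 bp (125384210 to 125386585), with 2297 bp of exons together. In the RefSeq table for Sscrofa11.1, a later build, each is 1 locus. The sources used here do not say whether reads were counted by strand, so reads from a piece placed on the opposite strand and from any antisense transcript there cannot be told apart.

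The shorter ADAM17 piece was lower than the longer one in every library. It held 0.445, 0.437 and 0.527 RPKM in healthy, 0.775, 0.739 and 1.18 RPKM in border zone and 1.31, 0.674 and 1.33 RPKM in ischemic libraries, a log2 difference from healthy of 0.79 ± 0.31 and 1.03 ± 0.31. Both injured zones were again above every healthy library, but with a healthy mean of 0.469 RPKM the shorter piece passed the filter only through these zones. Of all tested positions 28.4% in ischemic and 25.7% in border zone libraries were higher than healthy without overlap. The pieces differed in pig 2, whose ischemic library was the highest of its group for the longer piece (2.28 RPKM) and the lowest for the shorter one (0.674 RPKM), with ischemic minus border zone at 1.11 and -0.12. The plus strand piece of ADAM10 overlapped in all 3 zones, with 1, 0.911 and 0.962 RPKM in healthy, 1.08, 1.09 and 0.665 RPKM in border zone and 1.47, 1.03 and 0.871 RPKM in ischemic libraries.

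The 2375 bp piece of ADAM10 differed in its pattern from the 2 longer pieces. It stood at 1.39, 1.23 and 0.516 RPKM in healthy, 0.237, 0.361 and 0.577 RPKM in border zone and 1.97, 2.58 and 1.91 RPKM in ischemic libraries. These values rest on 9, 10 and 8 reads, then 2, 6 and 3 reads, then 10, 7 and 4 reads. The ischemic libraries lay above all others, and the border zone overlapped the healthy group. The log2 difference was 1.07 ± 0.39 in ischemic and -1.18 ± 0.39 in border zone against healthy. The pooled ratio of ischemic to border zone reads was 5.85 (exact 95% counting interval 2.7 to 13.4), whereas it was 1.21 (1.03 to 1.41) for the plus strand piece and 0.815 (0.684 to 0.967) for the longest piece.

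The longest ADAM10 piece lies inside the span of LIPC, the hepatic lipase gene, on the same strand (NM_001143714, chromosome 1 from 125418537 to 125667649). It takes up 20.5% of that span and held 31.5% to 53.6% of the reads listed for LIPC, so reads of the overlapping span are listed under both genes and cannot be assigned to 1 of them. Outside the ADAM10 piece the LIPC span held 0.261 to 0.334 RPKM among healthy, 0.332 to 0.349 among border zone and 0.354 to 0.423 among ischemic libraries, below the ADAM10 piece in every library. In the Sscrofa11.1 table ADAM10 and LIPC are neighbours that do not overlap.

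**Figure D4:**
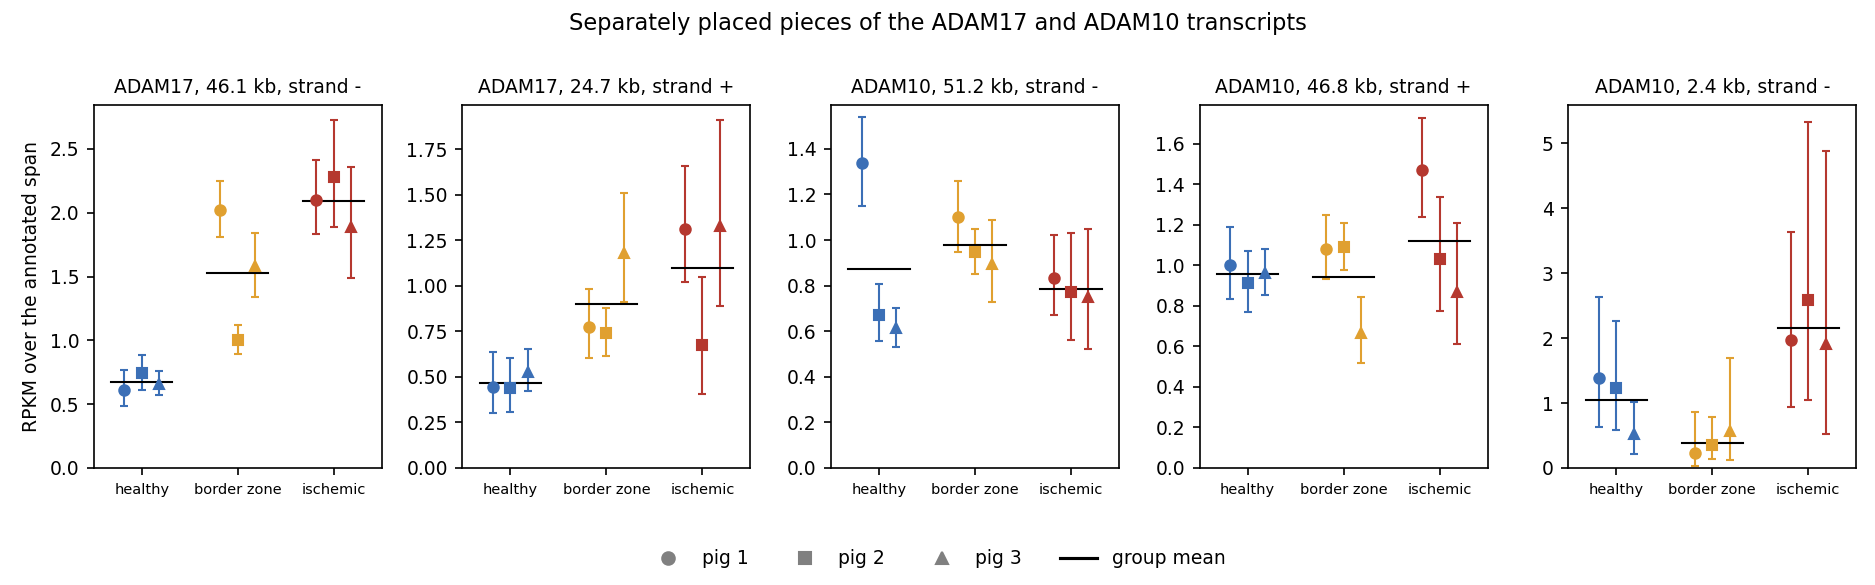
RPKM (linear axes from 0, a separate scale per panel) of the 2 ADAM17 and 3 ADAM10 pieces by zone, with symbols per pig, exact 95% counting intervals and group means. Both ADAM17 pieces are higher in border zone and ischemic than in healthy libraries, the 2 long ADAM10 pieces overlap between healthy and the other zones, and the 2.4 kb ADAM10 piece, with 2 to 10 reads per library, is highest in ischemic libraries.

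The nearest genes of the table to the ligand genes, 51.8 to 359 kb away, did not share one direction. Genes that lie closer but are not in the table could not be seen. CXCL2, a neutrophil-attracting chemokine that is the nearest gene of the table on the left of AREG (257 kb away), averaged 3.12 ± 0.747, 17.5 ± 2.36 and 24.3 ± 5.02 RPKM in healthy, border zone and ischemic myocardium (mean ± SD, n = 3 each). It rose in ischemic tissue (log2 difference 2.93 ± 0.27, limma adjusted p = 0.000506) and in border zone (2.47 ± 0.27, adjusted p = 0.00195). PARM1, the nearest on the right of AREG (359 kb), fell in ischemic tissue, from 1.32 ± 0.323 to 0.296 ± 0.1 RPKM (-1.85 ± 0.3, adjusted p = 0.00396), and had -0.44 ± 0.3 in border zone (adjusted p = 0.458). With a pseudocount of 0.5 the ischemic difference of PARM1 was -1.19 (adjusted p = 0.00434). ANKHD1, the nearest to HBEGF (51.8 kb), had 0.1 ± 0.23 (adjusted p = 0.778) and 0.26 ± 0.23 (adjusted p = 0.581). PDIA6, a protein disulfide isomerase gene 497 kb from the shorter ADAM17 piece, rose in ischemic tissue (1.23 ± 0.29, adjusted p = 0.0169). The call of PDIA6 did not hold without healthy replicate 2 or 3 or ischemic replicate 1 or 3 (adjusted p = 0.051, 0.0562, 0.0532 and 0.0507).

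Among 1986 other tested genes, those whose pattern over the 9 libraries was most like a member were found by Pearson's r of log2(RPKM + 0.1), given here as a description, since the libraries fall into 3 groups and share depth and zone. For AREG these were the cytokine genes IL1A and IL1B (r = 0.991 each), MTCH1 and the scavenger receptor gene MSR1 (0.988 each). Over the healthy, border zone and ischemic libraries IL1A averaged 0.171, 9.23 and 11.5 RPKM and IL1B 0.209, 16 and 18.7 RPKM. For HBEGF they were the myeloid receptor genes GPR84 and CCR1 (0.991 each), the cathepsin gene CTSH (0.99), LDHA, a lactate dehydrogenase subunit (0.986), and S100A12, a neutrophil protein (0.984). CCR1 averaged 0.0538, 2.6 and 7.06 RPKM, with the ischemic mean above the border zone mean as for HBEGF. ADAM17 was most like TKT, the transketolase gene (0.99), STAT3 (0.977), LY96, a partner of Toll-like receptor 4 (0.969), BTG3 (0.969) and ACSL4 (0.968). ADAM10 had looser partners, RSAD2 (0.896), MIR27A (0.827), UPRT (0.826), EEF1E1 (0.811) and GTF2E2 (0.803). Between members r was 0.947 for AREG with HBEGF, 0.899 for AREG with ADAM17 and 0.906 for HBEGF with ADAM17, but 0.118, 0.011 and -0.015 for ADAM10 with AREG, HBEGF and ADAM17.

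Other genes of the pathway were taken from a list of 130 symbols that leaves out the 4 members. Of these, 49 were matched to the table and 34 were tested. The EGF receptor itself could not be read. Both positions of EGFR lie on unplaced scaffolds, and all 548 positions on such scaffolds are listed at 0 in every library, so its 0 says nothing of its transcription. The same holds for 7 more of the listed genes, among them CD81, DUSP6 and SOCS3.

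The other ligands in the table were TGFA and EGF. TGFA, which encodes transforming growth factor alpha, another ADAM17 substrate (NM_214251, chromosome 3 from 75427123 to 75437891), held no read in the healthy libraries. It had 18, 5 and 8 reads in border zone (0.471, 0.0663 and 0.34 RPKM) and 6, 1 and 6 reads in ischemic libraries (0.261, 0.0814 and 0.631 RPKM). All 6 libraries of the injured zones thus held reads, at levels under those of AREG and HBEGF in the same libraries. Against a floor of 3 reads over the healthy group, the observed read density of TGFA was 10.3-fold higher in border zone and 13.2-fold higher in ischemic myocardium. These ratios are not lower bounds, since they leave out the counting error of the 31 border zone and 13 ischemic reads. They were 4.99-fold and 6.41-fold without healthy replicate 3. In border zone the ratio was 5.98-fold without border zone replicate 1 and 19.2-fold without border zone replicate 2. TGFA was too low to be tested. EGF has 1 position on a chromosome (chromosome 8 from 120390720 to 120413090), which held 3, 13 and 2 reads over the healthy, border zone and ischemic groups.

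In ischemic against healthy myocardium, 11 of the 34 tested pathway genes rose and 0 fell (limma, adjusted p under 0.05), or 32.4% higher. Of all tested positions 27.6% passed, 18.5% as higher and 9.1% as lower. Their median log2 difference was 0.61, against 0.21 over all tested positions. With quantile normalization 5 rose and 1 fell, and CSF1 (adjusted p = 0.0778), F11R (0.0801), MAP2K1, STAT3, DUSP1 and ITGB1 missed the threshold. Without healthy replicate 2, 6 rose. By limma-voom on the recovered reads 16 passed, among them TNF, CD9 and CD82. TIMP1, ICAM1, PROCR, CSF1 and F11R had healthy means under 0.5 RPKM and passed the filter through the other zones, PROCR through the ischemic libraries alone, so their calls lend the counts no support of their own. Marker sums of several cell types were higher in the same ischemic libraries. Beside the leukocyte sums given above, the 3 endothelial markers summed to 4.61 to 5.67 RPKM among healthy and 8.28 to 11.7 RPKM among ischemic libraries, and the 4 smooth muscle and pericyte markers to 2.39 to 3.15 and 4.47 to 4.77 RPKM. The 9 lymphocyte markers summed to 1.44 to 3.42 and 4.5 to 6.71 RPKM, and HBB, the 1 erythroid marker, stood at 3.04 to 14.4 and 19.8 to 66.3 RPKM. Their part in these calls was not tested.

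The list of sheddase regulators and relatives was represented by 2 general inhibitors of metalloproteases, TIMP1 and TIMP2, and both rose in ischemic tissue. Whether either acts on ADAM17 or on shedding of the ligands was not tested. TIMP1, an inhibitor of metalloproteases that also acts on ADAM10, held 0 RPKM in healthy pigs 1 and 2 and 0.606 RPKM in pig 3, and averaged 0.202 ± 0.35, 15.4 ± 4.47 and 29.1 ± 12.9 RPKM over the healthy, border zone and ischemic libraries (mean ± SD, n = 3 each). Its log2 difference was 7.14 ± 0.75 in ischemic tissue (adjusted p = 0.000895), or 8.08 without healthy replicate 3, and 5.4 and 8.74 with pseudocounts of 0.5 and 0.02. TIMP2 averaged 0.709 ± 0.243, 2.29 ± 0.341 and 3.25 ± 1.32 RPKM and had 2 ± 0.37 (adjusted p = 0.007).

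Of 12 tested membrane proteins that ADAM10 or ADAM17 are known to cut, 5 rose in ischemic myocardium and 0 fell (41.7% higher, against 18.5% of all tested positions). Of these 5, only TNFRSF1A had a healthy mean above the filter (1.69 RPKM). ICAM1, PROCR, CSF1 and F11R passed the filter through the other zones, so the share is no support for a rise of these substrates. The calls of TNFRSF1A, CSF1 and F11R did not hold without 1 or another single library. ICAM1, an adhesion molecule for leukocytes, averaged 0.334 ± 0.191, 2.15 ± 1.09 and 3.21 ± 1.41 RPKM in the 3 zones (log2 difference 2.96 ± 0.51, adjusted p = 0.00516, and 2.11 with a pseudocount of 0.5). PROCR, the endothelial protein C receptor, held no healthy read and 35 ischemic reads. Its observed ischemic read density was 35.6-fold higher against the floor of 3 reads over the healthy group, or 17.3-fold without healthy replicate 3. This ratio leaves out the counting error of the ischemic reads and is not a lower bound. PROCR passed the filter through the ischemic libraries alone, so its limma adjusted p of 0.00687 is no support of its own. TNFRSF1A, a receptor of tumour necrosis factor, had 1.45 ± 0.34 (adjusted p = 0.0169, and 0.052 without healthy replicate 2). CSF1, which drives macrophage growth, had 1.52 ± 0.38 (adjusted p = 0.0211). It missed the threshold without healthy replicate 2 or 3 (0.0622 and 0.0649) or ischemic replicate 1 or 3 (0.0642 and 0.0626). F11R, a junctional adhesion molecule, had 1.46 ± 0.4 (adjusted p = 0.0297), which missed the threshold without any 1 of the healthy replicates 1 to 3 (0.0682, 0.0642 and 0.0859) or ischemic replicates 1 to 3 (0.0742, 0.0545 and 0.0677).

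TNF itself, the substrate ADAM17 is named for, did not pass, at 1.64 ± 0.65 (adjusted p = 0.0939). Its ischemic libraries ranged from 0.821 to 7.48 RPKM and its healthy ones from 0.635 to 1.11 RPKM. Without ischemic replicate 3 it passed at 2.43 (adjusted p = 0.0112). APP, a substrate of ADAM10, had -0.28 ± 0.16 (adjusted p = 0.227) and IL6R, the interleukin 6 receptor, 0.18 ± 0.45 (adjusted p = 0.793).

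Of 11 genes that carry the signal inside the cell, 2 rose in ischemic myocardium and 0 fell, a share of 18.2% that lies next to the 18.5% of all tested positions. MAP2K1, the kinase MEK1, had 0.81 ± 0.18 (adjusted p = 0.0151), and STAT3, a transcription factor activated by growth factor and cytokine receptors, had 0.8 ± 0.18 (adjusted p = 0.0149, and 0.0532 without healthy replicate 2). Both calls were lost with quantile normalization (0.0717 and 0.0841). The adaptor gene GRB2 had 0.44 ± 0.33 (adjusted p = 0.356).

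Of 5 tested feedback inhibitors 1 rose and 0 fell (20% higher, against 18.5% of all tested positions). DUSP1, a phosphatase of MAP kinases, averaged 25.5 ± 11.4, 48.2 ± 13.6 and 61.7 ± 10.3 RPKM in healthy, border zone and ischemic myocardium (mean ± SD, n = 3 each), and rose in ischemic tissue (1.35 ± 0.37, adjusted p = 0.0301). That call was lost without healthy replicates 1 or 2 (0.0796 and 0.0902), without any 1 of the ischemic replicates 1 to 3 (0.0573, 0.0662 and 0.0692) in a fit of these groups alone (0.0552), and with median scaling (0.0753) or quantile normalization (0.73, adjusted p = 0.231). SPRY1, which restrains RAS signalling, averaged 3.43 ± 0.328, 1.88 ± 0.543 and 1.84 ± 0.589 RPKM, with -0.91 ± 0.31 (adjusted p = 0.0579), and passed as lower with median scaling (-1.13, adjusted p = 0.0266), with quantile normalization (-1.2, adjusted p = 0.0269) without border zone replicate 1 (0.0496) and with the filter at 2 RPKM (0.0477). SOCS4 had 0.47 ± 0.34 (adjusted p = 0.351), SOCS5 0.48 ± 0.18 (adjusted p = 0.0844) and the phosphatase gene PTPN1 0.27 ± 0.29 (adjusted p = 0.512). Of 4 tested genes listed as partners of the ligands and of integrins 1 rose and 0 fell (25% higher, against 18.5%). It was the integrin subunit gene ITGB1 (0.84 ± 0.19, adjusted p = 0.0146, and 0.084 with quantile normalization). CD9, a tetraspanin that binds the HB-EGF precursor, had 0.86 ± 0.45 (adjusted p = 0.188, and 0.043 at 1.3 without ischemic replicate 3). CD82, another tetraspanin, had 1.34 ± 0.55 (adjusted p = 0.102, and 0.0136 at 1.94 without ischemic replicate 2).

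In border zone against healthy myocardium 4 of the 34 pathway genes rose and 0 fell (11.8% higher, where 6% of all tested positions passed, 5.79% as higher and 0.21% as lower), with a median log2 difference of 0.45 against 0.22. They were TIMP1 (6.29 ± 0.75, adjusted p = 0.00301), ICAM1 (2.34 ± 0.51, adjusted p = 0.0375), TIMP2 (1.6 ± 0.37, adjusted p = 0.044) and MAP2K1 (0.77 ± 0.18, adjusted p = 0.0463, and 0.0579 with pig as a block). TIMP1 and ICAM1 had healthy means of 0.202 and 0.334 RPKM and passed the filter through the other zones. Their calls therefore lend this count no support of their own. TIMP1 kept its call without any 1 library, at 7.23 without healthy replicate 3. With healthy pigs 1 and 2 at 0, its size depended on the pseudocount, at 4.57 with 0.5 and 7.89 with 0.02. The other 3 missed the threshold without any 1 of healthy replicates 1 to 3 or border zone replicates 1 or 3, with adjusted p from 0.0575 to 0.167, and TIMP2 and MAP2K1 also without border zone replicate 2 (0.0666 and 0.0773) and ischemic replicate 1 (0.0586 and 0.0592). Without ischemic replicate 3, ICAM1 (0.0525) and MAP2K1 (0.0608) missed it. All 3 also missed it with a pseudocount of 0.5 and with quantile normalization. TNFRSF1A, at 1.29 ± 0.34 (adjusted p = 0.068), passed by limma-voom (0.015), in a fit of these groups alone (0.0338) and without ischemic replicate 1 (0.0387) or 2 (0.0438).

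Between ischemic and border zone myocardium 0 of the 34 pathway genes passed in limma, where 1.13% of all tested positions did, 0.168% as higher and 0.965% as lower. At an unadjusted p under 0.05 there were 3, and limma-voom on the recovered reads called 1, PROCR (3.08, adjusted p = 0.0384). The difference of PROCR in the main comparison was 2.74 ± 0.78 (adjusted p = 0.148), with libraries from 0 to 0.533 RPKM in border zone and 1.49 to 1.95 RPKM in ischemic myocardium.

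**Figure D5:**
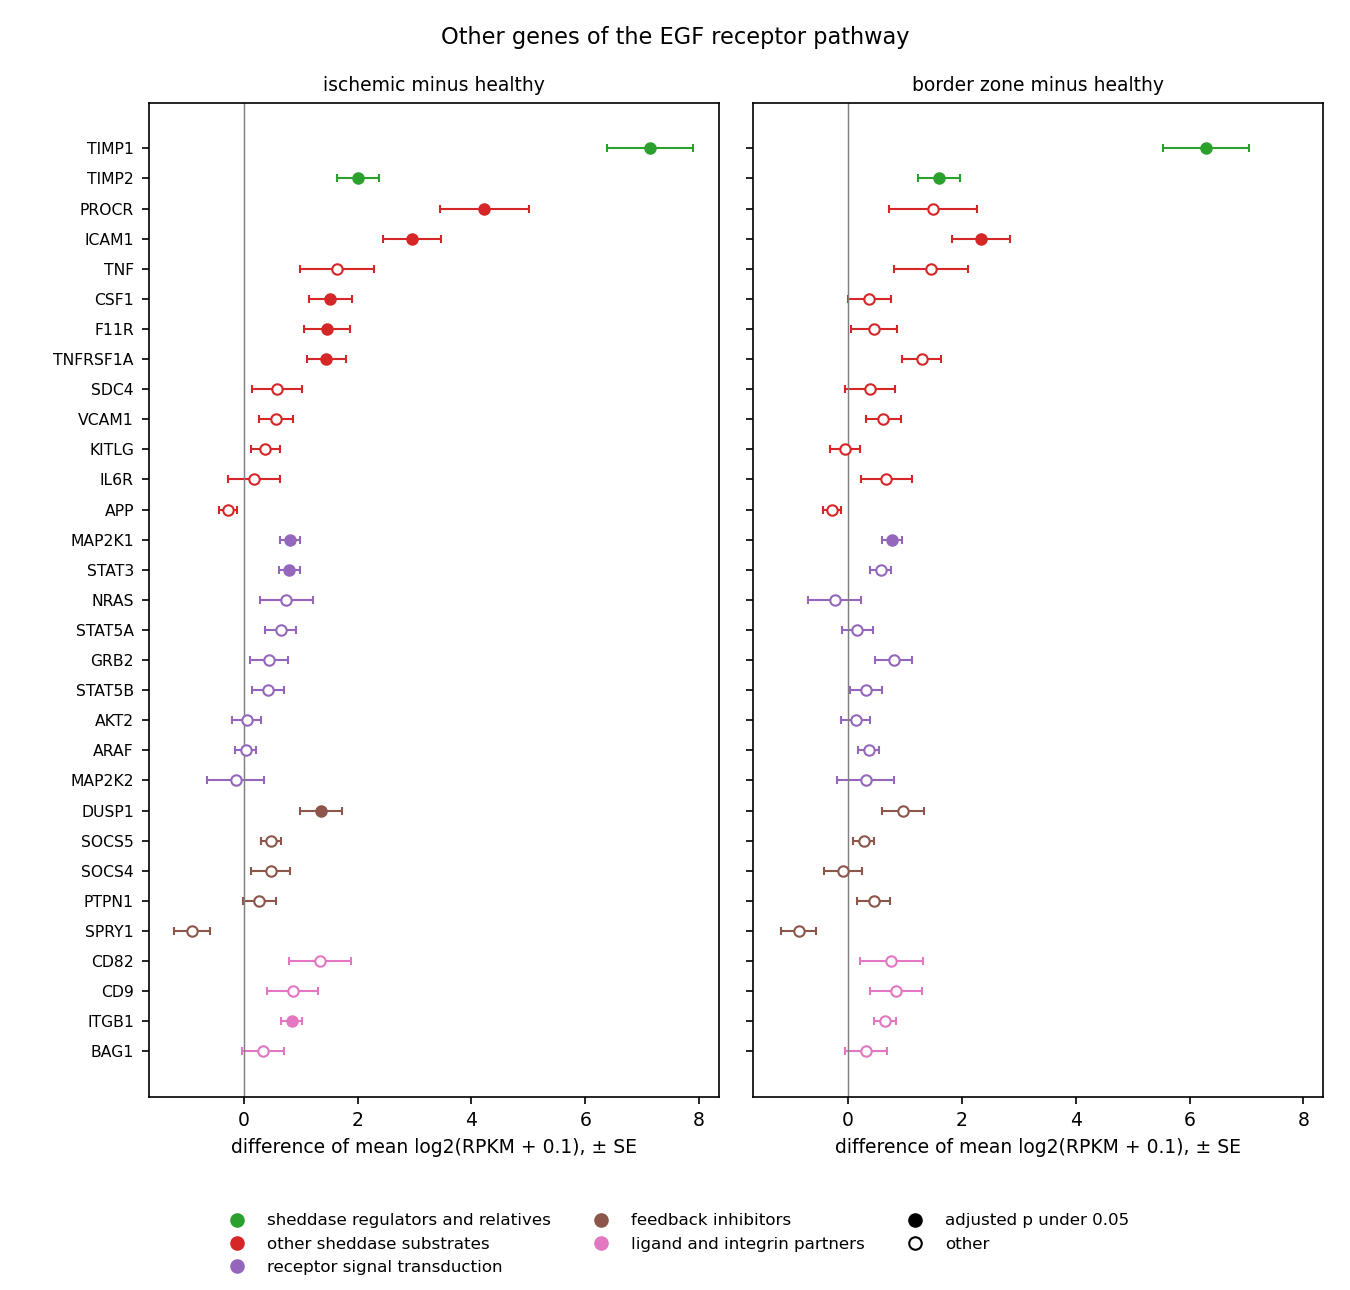
Differences of mean log2(RPKM + 0.1) ± SE for 31 of the 34 tested pathway genes, ischemic minus healthy (left) and border zone minus healthy (right), coloured by list, with filled symbols for an adjusted p under 0.05 (limma). Filled symbols number 11 on the left and 4 on the right, all of them above 0.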

How the data were processed

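GRO-seq was run on 9 libraries, from healthy, border zone and ischemic myocardium of 3 pigs. Reads were aligned with Bowtie to susScr3, per the submitters' processing notes. No source used here gives its version, the counting program or the strand setting. Values deposited are RPKM for 4882 positions, with exon and span lengths (other columns) in bp per the file headers. RPKM times span times library total gave whole reads within 0.01 reads for 100% of nonzero values, which gave read counts and totals. Of 4062 accessions 4000 were matched to symbols in the Sscrofa11.1 RefSeq table.

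Positions averaging 0.5 RPKM or more, 2384 in all, were fitted as log2(RPKM + 0.1) with limma 3.58.1 (R 4.3.3, eBayes trend and robust), 3 groups as terms, 2-sided, with Benjamini-Hochberg adjustment over all positions in each of 3 comparisons and a threshold of 0.05. The script was tested on simulated data. Plots used Python 3.11.15 and matplotlib 3.10.9, and intervals are exact (scipy 1.17.1). Members and lists were chosen with earlier results of these data known. Named genes were the members, all listed ligands and receptors, up to 20 other listed genes past the threshold, the 5 genes most like each member, and nearest neighbours within 500 kb. A few genes that meet this rule or belong to the lists are counted but not reported here by name. Other listed genes that are named (such as TNF, SPRY1 and CD9) were chosen after their values were seen. Same-numbered libraries come from the same pig, per the labels, and deviations from group means correlated at r = -0.037 to 0.179 across positions within pigs and -0.156 to 0.082 between pigs.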

Additional observations from a re-analysis of the deposited data

How the results depend on the processing

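The log2 differences of the members kept their sign under every setting tried for AREG, HBEGF and ADAM17 against healthy, while their size depended on the scale. AREG in ischemic tissue was 2.72 with a pseudocount of 0.5, 5.44 with 0.02, 3.59 with quantile normalization and 5.74 by limma-voom, and in border zone 2.78, 5.52, 3.73 and 5.65. HBEGF was 3.34 in ischemic and 2.63 in border zone tissue with a pseudocount of 0.5, and in border zone 3.84 with 0.02 and 3.2 with quantile normalization. ADAM17 in ischemic tissue was 1.14 with a pseudocount of 0.5, 1.3 with median scaling, 1.25 with quantile normalization and 1.64 by limma-voom. With the highest mean RPKM choosing the position, ADAM10 was read from its 2375 bp piece, at 1.07, -1.18 and 2.24 in the 3 comparisons. Ischemic minus border zone for ADAM10 was -0.09 with quantile normalization and 0.04 with its positions summed, which was chosen after seeing the data. ADAM17 and ADAM10 have no value under the filter at 2 RPKM. Without 1 library, ischemic and border zone differences from healthy ranged from 4.07 to 4.67 and 4.37 to 4.6 for AREG, 3.94 to 4.62 and 3.43 to 3.69 for HBEGF, 1.44 to 1.57 and 0.82 to 1.29 for ADAM17, and -0.25 to 0.25 and 0.03 to 0.53 for ADAM10. Ischemic minus border zone ranged from -0.4 to 0.2, 0.42 to 1.1, 0.21 to 0.68 and -0.34 to -0.21 for the 4 genes in that order.

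The count of pathway genes called in ischemic against healthy was 7 with the filter at 2 RPKM, 6 with quantile normalization and 6 to 12 without 1 library. In border zone it was 1 with a pseudocount of 0.5, the filter at 2 RPKM or quantile normalization, 2 without a filter or with median scaling, and 1 to 5 without 1 library. In ischemic against border zone it was 1 by limma-voom, 1 (a short piece of IL6R) with the highest mean choosing the position, and 0 without any 1 library.

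Over all positions, 659 were called in ischemic against healthy (442 higher, 217 lower), 346 with the filter at 2 RPKM, 749 by limma-voom and 362 to 698 without 1 library. Median scaling gave 337 higher and 297 lower, quantile normalization 248 and 258. In border zone 143 were called, 86 with a pseudocount of 0.5, 95 without a filter, 76 with the filter at 2 RPKM, 90 with median scaling, 80 with quantile normalization, 296 by limma-voom and 36 to 174 without 1 library. Ischemic against border zone had 27, and 10, 3, 8, 3 and 92 with a pseudocount of 0.5, no filter, median scaling, quantile normalization and limma-voom, 1 in a fit of these groups alone, and 0 to 39 without 1 library. The cause of these changes was not tested, apart from fewer positions tested under the stricter filter and fewer libraries in the smaller fits. With pig as a replicate block, 752, 205 and 29 positions and 12, 3 and 0 pathway genes were called, and among the genes named it changed the call of MAP2K1 in border zone. AREG in healthy libraries rests on 1 to 3 reads, which sets the precision of every ratio to it.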
